A study of Mus musculus with 6 samples.

Results

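Matricellular and adhesive glycoproteins are secreted proteins that sit in or bind to the extracellular matrix and act on cells through integrins and other surface receptors. The 9 genes described here are Fn1 and Vtn, which encode the adhesive proteins fibronectin and vitronectin, Tnc (tenascin-C), Postn (periostin), Thbs1 and Thbs2 (thrombospondin-1 and thrombospondin-2), Sparc (osteonectin), Spp1 (osteopontin) and Mgp (matrix Gla protein). They were taken by name from the 55487 gene identifiers of the count table, and all 9 were among the 19015 genes that passed the filter on low counts. The genes were chosen by name with their log2 fold changes between high and normal glucose in view, so the differences of these genes between the groups are given as a description and carry no test.

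The study asked how a diabetic level of glucose changes the transcripts of endothelial cells (ECs) from mouse skin. Cells were isolated from the skin of C57BL/6 mice, 4 to 6 animals aged 2 to 3 months, by collagenase digestion and binding to microbeads against CD31, an endothelial surface protein. All cultures shared this origin and the 48-hour treatment, and they differed in the medium, which held 5 mmol/L glucose (normal glucose, n = 3) or 20 mmol/L glucose (high glucose, n = 3). Animals were pooled, and the labels do not say whether the 3 samples of a group came from separate isolations. The study's figure legend gives n = 3 per group of mice, without saying how the pools map to samples. The SDs below therefore measure only the spread between these samples, which may be technical. The adjusted P values weigh the group differences against that same kind of spread.

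Matricellular proteins do little to bear load in the matrix. They are known for adjusting adhesion, growth factor activity and protease activity, and many of them are made at high levels in wounds and in healing skin. Thrombospondins are also known as inhibitors of angiogenesis, and fibronectin and vitronectin provide adhesion sites for endothelial cells and fibroblasts.

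Libraries held between 120192466 and 146881356 counts, and 3 counts corresponded to 0.0211 to 0.0258 CPM (counts scaled to a common library total). All levels below are CPM after TMM normalization, a scaling that balances most genes between libraries, and differences are log2 fold changes of high over normal glucose with their standard error (SE) from edgeR's quasi-likelihood fit. Over all tested genes the median log2 fold change was 0.0062 and the median absolute value was 0.20. The defining markers of the labelled cell type were low: Pecam1, which encodes CD31, had between 9 and 19 counts per library, Tie1 had at most 2, and Sox17 had none. Cdh5, which encodes VE-cadherin, gave 231, 242 and 236 counts in the normal-glucose libraries and 130, 91 and 125 in those of high glucose. Tek had 151 to 302 counts per library, Kdr 576 to 777 and Vwf 73 to 144. These markers did not share a direction. The log2 fold change was -1.03 for Cdh5 and 0.66 for Tek, which were called at an adjusted P under 0.05 (edgeR test). It was 0.15 for Kdr, -0.34 for Vwf and -0.31 for Pecam1, which were not called. The 20 endothelial markers on the list summed to between 227 and 255 CPM in normal glucose and between 208 and 214 CPM in high glucose. The filter on low counts removed 7 of them. Of the 13 tested, 3 were called higher and 3 lower (adjusted P under 0.05, edgeR test), against 16.9% and 14.5% of all tested genes. The 20 fibroblast markers summed to between 43324 and 46777 CPM in normal glucose and between 76935 and 82087 CPM in high glucose. Such a sum weighs the abundant markers most. By the same test 14 of the 20 were called higher, 4 lower and 2 not called. Over all tested genes 16.9% were called higher and 14.5% lower. Adipocyte markers summed to between 240 and 291 CPM in normal glucose and between 278 and 317 CPM in high glucose, and keratinocyte markers to at most 2.97 CPM in any library. The cultures are therefore named below by their medium and not by a cell type. In bulk RNA, fewer cells of a type and less RNA per cell cannot be told apart, and the part of the fibroblast markers in the differences below was not tested.

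A short motif, Arg-Gly-Asp (RGD), is the best-known integrin-binding sequence of adhesive glycoproteins. In the longest annotated coding transcripts (GENCODE M21, GRCm38), in-frame RGD codons were found 6 times, in 5 of the 9 genes: Thbs1, Thbs2, Spp1, Fn1 and Vtn. They were not found in the longest coding transcripts of Postn, Tnc, Sparc and Mgp. The 39 bases around each occurrence are shown because this motif is the letters by which several of these proteins are known to bind integrins, and capitals mark the 9 bases of the RGD codons.
Vtn, chr11:78499706-78499714, plus strand, exon 3 of 8, codon 64 of 478: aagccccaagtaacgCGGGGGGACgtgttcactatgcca
Spp1, chr5:104439481-104439489, plus strand, exon 7 of 8, codon 145 of 295: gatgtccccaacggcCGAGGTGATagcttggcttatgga
Fn1, chr1:71606746-71606754, minus strand, exon 30 of 46, codon 1614 of 2477: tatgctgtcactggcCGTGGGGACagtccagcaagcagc
Fn1, chr1:71597443-71597451, minus strand, exon 40 of 46, codon 2181 of 2477: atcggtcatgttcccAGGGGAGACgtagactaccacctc
Thbs1, chr2:118122882-118122890, plus strand, exon 18 of 22, codon 927 of 1171: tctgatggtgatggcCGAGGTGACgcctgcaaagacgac
Thbs2, chr17:14671484-14671492, minus strand, exon 18 of 22, codon 928 of 1172: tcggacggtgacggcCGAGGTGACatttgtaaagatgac
Coordinates are those of the capital letters. Thbs1 and Thbs2 carry the motif in exons of the same number and at neighbouring codon positions. The genes that hold RGD codons did not share a direction in high glucose: Vtn was higher, Spp1 and Thbs1 were lower, and Fn1 and Thbs2 had overlapping groups, as described gene by gene below.

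The plot of log2 fold changes gives the order of the 9 genes, from Mgp at -2.79 to Vtn at 2.59, with 3 values below 0 and 6 above. Their median was 0.21. At the threshold of the study (0.05 on the adjusted P value, here from the quasi-likelihood test of edgeR), 7 of the 9 genes were called, 3 lower and 4 higher, while 31.4% of all tested genes were called (14.5% lower and 16.9% higher). The study itself reported far fewer changed genes than were called here. The groups did not overlap for those 7 genes, and they did not overlap for 46.4% of all tested genes. Since the list was drawn up on this comparison, nothing is read from these counts.

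**Figure D1:**
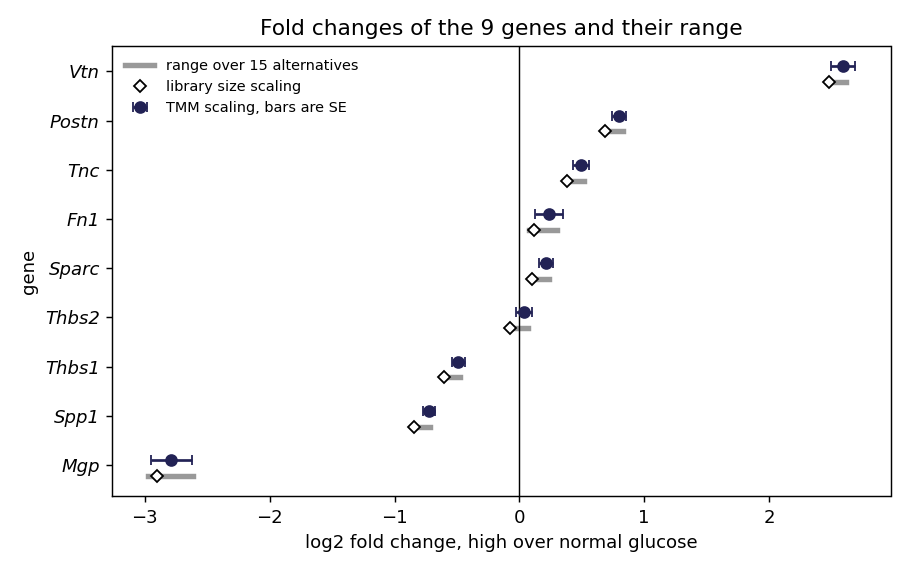
Log2 fold change of high over normal glucose for each of the 9 genes (horizontal axis), as filled points with bars of 1 SE from the edgeR fit to 3 samples per group, grey lines for the range over all alternatives and diamonds for scaling by library size alone. Mgp (-2.79) and Vtn (2.59) lie far from the other 7 genes, which fall between -0.73 and 0.80.

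Of the adhesive pair, Vtn was higher in high glucose and the groups overlapped for Fn1. Vtn (ENSMUSG00000017344, chr11:78499091-78502324, plus strand) encodes a plasma and matrix protein that binds integrins and the urokinase receptor. Its level was 0.846, 0.832 and 0.898 CPM in normal glucose and 5.22, 5.06 and 5.24 CPM in high glucose. Every high-glucose library lay above every normal-glucose library, by far more than the spread within either group. The means were 0.859 ± 0.0348 and 5.17 ± 0.0956 CPM (SD, n = 3 each), a 6.03-fold higher level and a log2 fold change of 2.59 (SE 0.0986). These levels rest on 106, 118 and 115 counts (normal glucose) and on 741, 589 and 706 counts (high glucose). Vtn had the 20th largest log2 fold change above 0 of the 19015 tested genes.

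Fn1 (ENSMUSG00000026193, chr1:71585520-71653200, minus strand) encodes fibronectin, the main adhesive glycoprotein of provisional matrix. It stood at 2244, 3114 and 3145 CPM in normal glucose and at 3451, 3120 and 3437 CPM in high glucose. The groups overlapped, since high-glucose replicate 2 lay below normal-glucose replicate 3, and normal-glucose replicate 1 lay far below the other 5 libraries. The means were 2835 ± 512 and 3336 ± 187 CPM, with a log2 fold change of 0.24 (SE 0.113). Without normal-glucose replicate 1 the log2 fold change was 0.074, so that library set most of the difference. The Fn1 to Vtn ratio in CPM was 3300 ± 574 in normal glucose and 644 ± 24.6 in high glucose, and the groups did not overlap.

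Tenascin-C and periostin, matricellular proteins that are both prominent in wound matrix, were both higher in high glucose. Tnc (ENSMUSG00000028364, chr4:63959785-64047015, minus strand) encodes a hexameric protein that loosens the attachment of cells to fibronectin. Its level was 9671, 10627 and 10791 CPM in normal glucose and 14954, 13820 and 14988 CPM in high glucose. All 3 high-glucose libraries lay above all 3 normal-glucose libraries. The means were 10363 ± 605 and 14587 ± 664 CPM, a 1.41-fold higher level and a log2 fold change of 0.49 (SE 0.0605). Tnc had the most counts of the 9 genes in both groups and the third most of all tested genes.

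Postn (ENSMUSG00000027750, chr3:54361109-54391037, plus strand) encodes periostin, which binds tenascin-C, fibronectin and collagen and takes part in collagen assembly. Its level was 320, 334 and 323 CPM in normal glucose and 530, 592 and 579 CPM in high glucose. The lowest high-glucose library was well above the highest normal-glucose library. The means were 326 ± 7.03 and 567 ± 32.4 CPM, a 1.74-fold higher level and a log2 fold change of 0.80 (SE 0.0564). The ratio of Postn to Tnc in CPM, which is not a ratio of molecules, was 0.0315 ± 0.00157 in normal glucose and 0.0390 ± 0.00369 in high glucose.

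Of the paralogs Thbs1 and Thbs2, Thbs1 was lower in high glucose and the groups overlapped for Thbs2. Thbs1 (ENSMUSG00000040152, chr2:118111876-118127133, plus strand) encodes thrombospondin-1, an activator of latent TGF-β and an inhibitor of angiogenesis that signals through CD36 and CD47. Its level was 9062, 9532 and 9391 CPM in normal glucose and 6880, 6370 and 6675 CPM in high glucose. All high-glucose libraries lay below all normal-glucose libraries. The means were 9328 ± 241 and 6642 ± 256 CPM, a 1.40-fold lower level with a log2 fold change of -0.49 (SE 0.0522).

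Thbs2 (ENSMUSG00000023885, chr17:14665500-14694235, minus strand) encodes thrombospondin-2, a relative with a shared anti-angiogenic role that also affects collagen fibril formation and the clearance of matrix metalloproteinase-2. It stood at 3161, 3689 and 3711 CPM in normal glucose and at 3669, 3536 and 3625 CPM in high glucose. The high-glucose libraries lay within the range of the normal-glucose libraries. The means were 3521 ± 311 and 3610 ± 67.6 CPM, with a log2 fold change of 0.036 (SE 0.0666) that was -0.078 when libraries were scaled by their totals alone. The Thbs1 to Thbs2 ratio was 2.87, 2.58 and 2.53 (normal glucose) against 1.88, 1.80 and 1.84 (high glucose). This ratio does not depend on the scaling of the libraries, and its groups did not overlap.

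**Figure D2:**
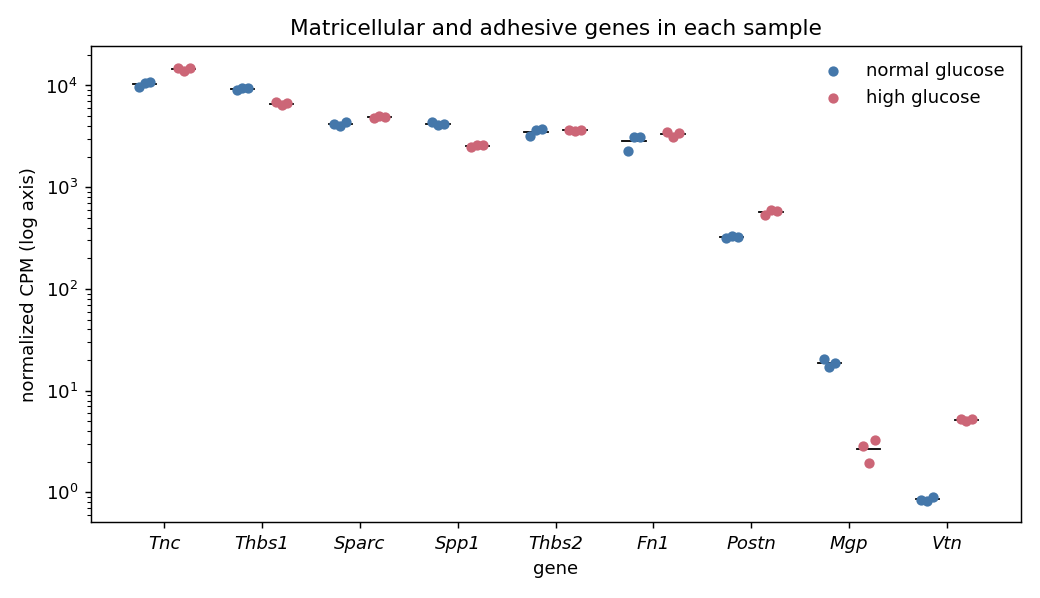
Normalized CPM (log axis) of each gene in the 3 normal-glucose and 3 high-glucose libraries, with a point for each library and a short line for the group mean. Thbs2 and Fn1 are the genes whose groups overlap, and the low normal-glucose library of Fn1 stands at 2244 CPM against 3114 CPM or more in the other 5.

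Of the proteins known from mineralized tissue, Sparc was slightly higher and Spp1 and Mgp were lower. Sparc (ENSMUSG00000018593, chr11:55394500-55423183, minus strand) encodes a collagen-binding, counter-adhesive protein. Its level was 4218, 4041 and 4420 CPM in normal glucose and 4783, 5046 and 4860 CPM in high glucose. The groups did not overlap, but the gap between them was of the size of the spread within normal glucose. The means were 4226 ± 189 and 4896 ± 135 CPM, with a log2 fold change of 0.21 (SE 0.0536). With libraries scaled by their totals alone it was 0.097 and no longer called, and it was also not called without high-glucose replicate 2 or without high-glucose replicate 3, with values between 0.17 and 0.24 over the 6 samples left out in turn.

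Spp1 (ENSMUSG00000029304, chr5:104435118-104441050, plus strand) encodes osteopontin, a phosphorylated protein that binds αv integrins and CD44 and is made by macrophages, bone cells and activated mesenchymal cells. Its level was 4372, 4095 and 4203 CPM in normal glucose and 2491, 2579 and 2594 CPM in high glucose. The groups were far apart, and the spread within each was small. The means were 4223 ± 140 and 2555 ± 55.4 CPM, a 1.65-fold lower level with a log2 fold change of -0.73 (SE 0.0507). The macrophage markers on the list, summed, lay between 8.41 and 9.45 CPM in normal glucose and between 5.72 and 6.52 CPM in high glucose, and 5 of the 8 (Ptprc, Adgre1, C1qa, C1qb and Itgam) had at most 16 counts in any library. Of the 3 tested, Csf1r and Cd68 were called lower and Lyz2 was not called (over all genes, 14.5% were lower and 16.9% higher). The call of Cd68 held in 2 of the 6 fits that left out a sample. The chondrocyte and osteoblast markers summed to between 81.3 and 84.5 CPM in normal glucose and between 93.9 and 98.2 CPM in high glucose, with Ibsp and Acan at 9 counts or fewer. Of the 6 tested, 2 were called higher, 1 lower and 3 not called. The part of any of these markers in the Spp1 values was not tested.

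Mgp (ENSMUSG00000030218, chr6:136872435-136875823, minus strand) encodes a small vitamin K-dependent protein that inhibits calcification and binds bone morphogenetic proteins, and it is known in arteries and cartilage. Its level was 20.4, 17.0 and 18.5 CPM in normal glucose and 2.84, 1.93 and 3.30 CPM in high glucose. Every high-glucose library was far below every normal-glucose library. The means were 18.7 ± 1.73 and 2.69 ± 0.700 CPM, a 6.94-fold lower level with a log2 fold change of -2.79 (SE 0.162). The values rest on 2561, 2412 and 2372 counts (normal glucose) and on 403, 224 and 445 counts (high glucose). High-glucose libraries varied by 26.0% (coefficient of variation), the widest relative spread among the 9 genes in either group, and the log2 fold change lay between -2.98 and -2.62 when each sample was left out in turn. Mgp had the 28th lowest log2 fold change of the 19015 tested genes. Mural and smooth muscle markers, a cell type in which Mgp is known to be made, summed to between 644 and 720 CPM in normal glucose and between 542 and 568 CPM in high glucose, with 6 of the 10 tested markers lower and 2 higher (over all genes, 14.5% were lower and 16.9% higher). The chondrocyte and osteoblast markers went the other way in sum, but not gene by gene. They lay between 81.3 and 84.5 CPM in normal glucose and between 93.9 and 98.2 CPM in high glucose. Of the 6 tested, 2 were called higher, 1 lower and 3 not called, with a median log2 fold change of -0.12. The summed fibroblast markers given above were also higher in high glucose. The part of any of these markers in the Mgp values was not tested.

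The groups overlapped in the share of the libraries that the 9 genes held together, while their proportions among themselves differed. Their summed share of all counts was 3.45%, 3.72% and 3.71% (normal glucose) against 3.55%, 3.34% and 3.54% (high glucose), with means of 3.63 ± 0.156% and 3.48 ± 0.116%. The groups overlapped, and the difference of the means was -0.146 percentage points, which was -0.236 without normal-glucose replicate 1 and -0.0793 without high-glucose replicate 2. On the TMM scale the sum of the 9 genes lay between 33070 and 36004 CPM in normal glucose and between 35071 and 36767 CPM in high glucose, so the sign of this small difference depended on the scaling. Within this sum, Tnc took 29.7 ± 0.422% in normal glucose and 40.3 ± 0.759% in high glucose, Thbs1 took 26.8 ± 0.664% and 18.3 ± 0.319%, and Spp1 took 12.1 ± 0.931% and 7.06 ± 0.289%. The groups did not overlap in any of these 3 shares. Thbs2 kept close to the same place, at 10.1 ± 0.463% and 9.97 ± 0.112%. Mgp and Vtn, with the largest fold differences, contributed almost nothing to the sum: Mgp held 0.0537% and then 0.0074% of it, and Vtn held 0.0025% and then 0.0143%.

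**Figure D3:**
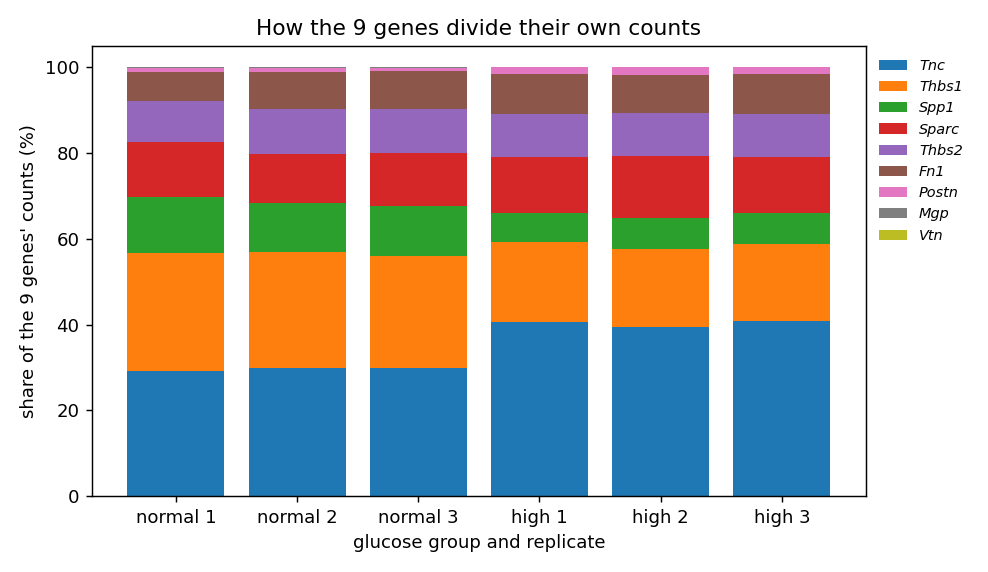
Share of the summed counts of the 9 genes that each gene held in each of the 6 libraries, in percent. Tnc goes from a mean of 29.7% to 40.3% of the sum between normal and high glucose while Thbs1 goes from 26.8% to 18.3%.

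Levels of different genes were compared per kilobase of the union of annotated exons. In normal glucose the order was Spp1 (2563 CPM per kilobase), Thbs1 (1536), Tnc (1333), Sparc (1116), Thbs2 (503), Fn1 (243), Postn (37.4), Mgp (15.7) and Vtn (0.423), and no neighbours in this order overlapped. In high glucose the order was Tnc (1877), Spp1 (1550), Sparc (1293), Thbs1 (1094), Thbs2 (516), Fn1 (285), Postn (65.2), Vtn (2.55) and Mgp (2.27), and Vtn and Mgp were the only neighbours whose libraries overlapped. Among the 18994 tested genes with a length, Spp1 ranked 3 in normal glucose and 6 in high glucose, Tnc 9 and 5, and Thbs1 7 and 16. The ranks of the least abundant pair changed most, with Mgp at 3104 in normal glucose and 9838 in high glucose and Vtn at 13862 and 9469. The order depends on the length used: with the longest annotated transcript in place of the exon union, Sparc stood above Thbs1 and Tnc in normal glucose and above all the others in high glucose.

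**Figure D4:**
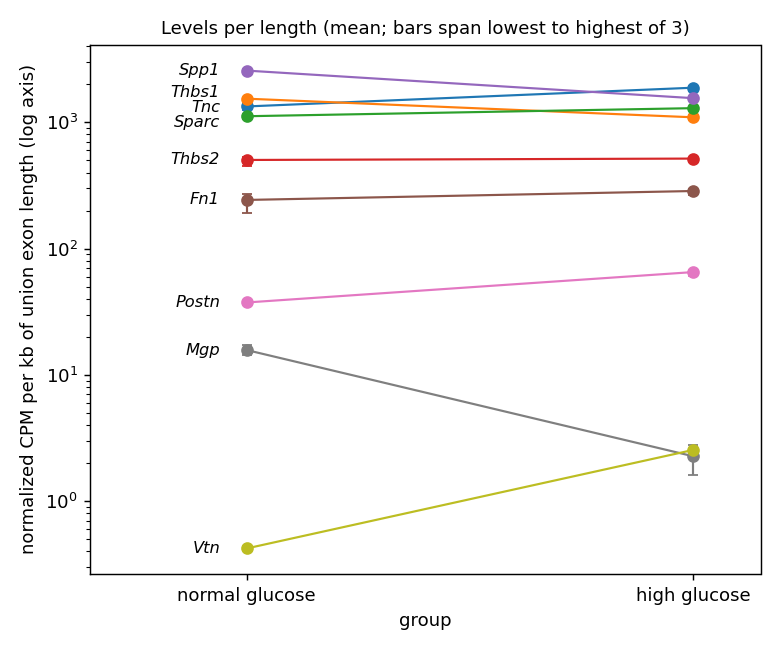
Normalized CPM per kilobase of union exon length (log axis) for each gene, with points for the mean of 3 libraries in each medium, bars from the lowest to the highest library and lines joining the media. Spp1 is the highest in normal glucose at 2563 and Tnc in high glucose at 1877, and the ranges of Mgp (mean 2.27) and Vtn (mean 2.55) overlap in high glucose.

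Some annotated features limit how firmly these counts belong to the genes. Tnc, Thbs1 and Fn1 each overlap a gene on the opposite strand, and Spp1 overlaps Gm42793 on its own strand over 309 exonic bases, but the overlapping genes held at most 0.0555% of the count of their partner. Windows of 75 bases that also occur in another gene made up 8.55% of the exonic windows of Spp1, 1.50% of those of Fn1, 1.07% of those of Thbs1 and 0.399% of those of Tnc, and none were found for the other 5 genes. How the counting treated such reads and whether it used strand are not given in the sources used here.

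Sequence before the start site was available for 6 of the 9 genes (RefSeq, GRCm38.p6), and the 250 bases before 1 start are shown for 3 genes that were higher and 1 that was lower in high glucose. Capitals mark the letters of the TATA box (TATAAA or its variant TATATA), of the CCAAT box, of the GC box (here GGGCGG), of the AP-1 element (here TGANTCA) and of the E-box (here CACGTG), searched on both strands.
Vtn promoter, chr11:78498870-78499119, plus strand: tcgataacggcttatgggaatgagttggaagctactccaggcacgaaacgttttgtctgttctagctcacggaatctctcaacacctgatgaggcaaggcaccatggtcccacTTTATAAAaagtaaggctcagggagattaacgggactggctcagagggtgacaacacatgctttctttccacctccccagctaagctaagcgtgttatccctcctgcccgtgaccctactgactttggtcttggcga
Postn promoter, chr3:54360857-54361106, plus strand: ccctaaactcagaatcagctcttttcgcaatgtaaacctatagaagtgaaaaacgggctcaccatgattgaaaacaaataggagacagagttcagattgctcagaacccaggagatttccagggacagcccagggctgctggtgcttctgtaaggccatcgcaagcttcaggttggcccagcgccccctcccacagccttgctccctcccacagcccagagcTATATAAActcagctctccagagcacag
Tnc promoter, chr4:64047016-64047265, minus strand: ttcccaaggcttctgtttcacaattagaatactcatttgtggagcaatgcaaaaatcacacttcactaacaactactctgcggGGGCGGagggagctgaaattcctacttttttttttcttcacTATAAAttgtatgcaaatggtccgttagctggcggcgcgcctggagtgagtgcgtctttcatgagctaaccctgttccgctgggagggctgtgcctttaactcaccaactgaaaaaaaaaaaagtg
Spp1 promoter, chr5:104434861-104435110, plus strand: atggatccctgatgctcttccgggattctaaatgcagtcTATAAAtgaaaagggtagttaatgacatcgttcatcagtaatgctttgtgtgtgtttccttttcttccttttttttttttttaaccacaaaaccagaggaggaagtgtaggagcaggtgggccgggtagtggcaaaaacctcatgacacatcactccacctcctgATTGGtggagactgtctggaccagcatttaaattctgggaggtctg
Postn holds TATAAA from base 26 to base 21 before its start, with an overlapping TATATA from 28 to 23. A further annotated start of Tnc, 79 bases downstream of the one shown, has TATATA from 29 to 24 before it. In the other 3 windows shown the matches lie farther away, TATAAA from 137 to 130 (1 match on each strand, overlapping) in Vtn, from 126 to 121 in Tnc and from 211 to 206 in Spp1. Tnc also holds GGGCGG from 167 to 162 and Spp1 holds CCAAT from 46 to 42. The 6 genes had 9 annotated starts with sequence, so the windows shown are a selection. Not shown are the window of Sparc and those of a further start of Postn and of Spp1, which hold none of the letters searched. That of Thbs2, also not shown, holds TATAAA and CCAAT. Of all 32851 promoter entries of this length, 12.4% hold TATAAA and 5.25% its variant TATATA, 33.8% hold the CCAAT letters, 32.7% those of the GC box, 6.75% those of the AP-1 element and 6.02% those of the E-box. These matches are descriptions of the letters and not sites.

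For each gene, the tested protein-coding gene outside the list with the most similar pattern over the 6 libraries was found, by the root mean square difference of centred log2 CPM among 11731 candidates. Tnc was closest to Thbs3, a thrombospondin, at 0.0152. Vtn was closest to Pi16, a gene on the fibroblast marker list, at 0.0405, and Postn to Fmo1 at 0.0302. Spp1 was closest to Spry1 (0.0139) and Thbs1 to Akap12 (0.0205). Mgp had no near neighbour, since its closest gene, Cck, differed by 0.249. This distance reflects the difference between the groups and the spread within them. Close pairs therefore have like log2 fold changes (2.59 and 2.53 for Vtn and Pi16), and few genes can lie near a value as extreme as that of Mgp. The remaining pairs were Thbs2 with Cmtr1 (0.0086), Sparc with Cdnf (0.0154) and Fn1 with Slc29a3 (0.0315).

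The lists of relatives, receptors and partners were chosen with earlier results of these data known, so their counts are a description. Of 43 related family genes, 37 were tested; 20 rose, 6 fell and 11 did not pass the threshold, with a median log2 fold change of 0.31 against 0.0062 over all genes and 70.3% called against 31.4% over all genes. The remaining thrombospondins, Thbs3, Thbs4 and Comp, all rose, though Comp was low, at 0.249 ± 0.0826 and 0.933 ± 0.0274 CPM. Thbs4 went from 12.9 ± 0.517 to 37.6 ± 1.01 CPM (log2 fold change 1.54, adjusted P = 4.6e-08 by the edgeR fit, as are all adjusted P values below, corrected after Benjamini and Hochberg). Among the tenascins, Tnn and Tnxb rose beside the higher Tnc, with log2 fold changes of 0.99 and 0.72. Tnr fell by 0.64 (adjusted P = 0.0194, edgeR), a call that held in 2 of the 6 fits that left out a sample, those without replicate 1 of either group. Of the 7 relatives of Sparc, 3 rose, 1 fell and 3 did not pass. The bone and tooth glycoproteins encoded near Spp1 were not tested, as none had more than 9 counts in a library. Gas6, a vitamin K-dependent protein like Mgp, rose from 1009 ± 31.2 to 1935 ± 28.8 CPM (log2 fold change 0.94), in the direction opposite to Mgp.

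The strongest rises among the related genes were those of Fndc1, which encodes a protein with fibronectin type III domains, and Abi3bp, which encodes a matrix protein that binds integrins. Fndc1 went from 2.55 ± 0.421 to 13.6 ± 0.348 CPM (log2 fold change 2.41, adjusted P = 2.2e-07 in the same edgeR test). Abi3bp went from 81.5 ± 8.85 to 382 ± 16.9 CPM (log2 fold change 2.23, adjusted P = 4.6e-08, edgeR). Prg4, the lubricating proteoglycan lubricin, rose by 1.54 on the log2 scale, and Matn4, Svep1, Ccn5 and Ccn3 rose by between 1.17 and 1.38. Ccn2 and Tgfbi, both known as TGF-β responsive matrix genes, fell by 0.51 and 0.40.

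The receptors went in both directions. Of 27 receptor genes, 26 were tested; 6 rose, 8 fell and 12 did not pass, with a median log2 fold change of -0.058 and 53.8% called against 31.4% over all genes. With libraries scaled by their totals alone, 4 were called higher and 12 lower. Itga4, the α4 integrin that binds osteopontin and fibronectin, fell from 21.8 ± 3.08 to 6.39 ± 0.337 CPM (log2 fold change -1.77, adjusted P = 7.8e-07, edgeR). Itgb3, the partner of αv in the classical vitronectin receptor, fell from 67.3 ± 2.69 to 45.7 ± 2.73 CPM (log2 fold change -0.56, adjusted P = 5.9e-05, edgeR). Itgav itself stood at 200 ± 15.4 and 177 ± 6.91 CPM and did not pass (adjusted P = 0.0581, edgeR). Cd44, an osteopontin receptor, fell by 0.45 on the log2 scale, while the integrin subunit Itga9 on the same list rose by 0.44. Of the thrombospondin-1 receptors named above, Cd36 fell by 0.32 and Cd47 did not pass. Vldlr, a receptor for thrombospondin-1, fell by 0.96, and Plaur, the urokinase receptor that binds vitronectin, fell by 0.51 while Vtn was higher. Lrp1, which clears thrombospondins and proteases from the surface, rose from 1606 ± 121 to 2988 ± 215 CPM (log2 fold change 0.90, adjusted P = 8.3e-06, edgeR). Ptprz1, a tenascin-C receptor, rose by 1.45 and Scarb1 by 0.58.

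**Figure D5:**
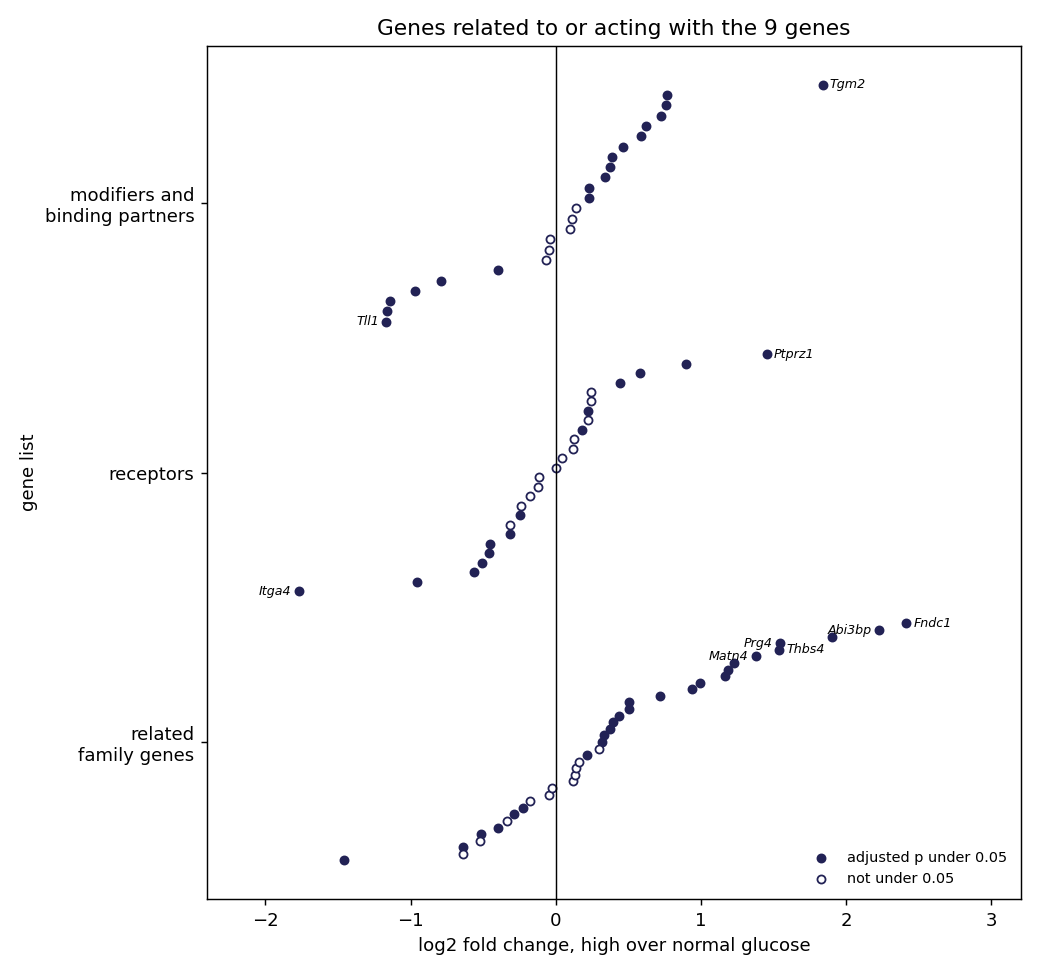
Log2 fold change of high over normal glucose for each tested gene of the 3 lists of related genes, receptors, and modifiers and binding partners; filled points passed the 0.05 threshold on the adjusted P value (edgeR). Related genes lie mostly above 0 (median 0.31), up to Fndc1 at 2.41, and receptors lie on both sides (median -0.058), down to Itga4 at -1.77.

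Among genes whose products modify or bind these glycoproteins, 24 of 25 were tested; 12 rose, 6 fell and 6 did not pass, with a median log2 fold change of 0.18 and 18 of the 24 called against 31.4% over all genes. With libraries scaled by their totals alone, 10 were called higher and 8 lower. Tgm2, the transglutaminase that crosslinks fibronectin and osteopontin, rose from 32.1 ± 2.51 to 115 ± 2.67 CPM (log2 fold change 1.84, adjusted P = 4.1e-08, edgeR). Col1a1, whose product binds periostin and SPARC and which is also on the fibroblast list, rose by 0.76, and Pxdn, a matrix peroxidase, rose by 0.77. Mmp3, a protease that cleaves fibronectin, osteopontin and tenascin-C, fell from 1832 ± 149 to 936 ± 54.1 CPM (log2 fold change -0.97, adjusted P = 3.9e-06, edgeR). Tll1, a protease of the BMP1 family, fell by 1.17 and Plau, the urokinase, by 0.79.

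Mgp must be carboxylated to bind calcium, and the genes of this step differed by far less than the 6.94-fold lower level of Mgp itself. Ggcx, the vitamin K-dependent carboxylase, stood at 79.4 ± 4.38 and 75.8 ± 3.38 CPM and did not pass (adjusted P = 0.426, edgeR). Vkorc1, which regenerates vitamin K, stood at 85.0 ± 6.35 and 99.8 ± 2.42 CPM, with a log2 fold change of 0.23 (adjusted P = 0.0166, edgeR) that was not called with libraries scaled by their totals alone, nor in 4 of the 6 fits that left out a sample (it held without normal-glucose replicate 1 or 2). Fam20c, the kinase that phosphorylates osteopontin, differed by a log2 value of 0.23 (adjusted P = 0.0287, edgeR) that was called only without normal-glucose replicate 2 among those 6 fits, and was not called with library totals alone (adjusted P = 0.229, edgeR) or with the replicate block (adjusted P = 0.0601, edgeR).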

How the data were processed

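Bulk poly(A) RNA-sequencing of 6 mouse skin cultures was analysed, 3 in normal and 3 in high glucose, grouped by the labels. Per the submitters' processing notes, the authors used Trimmomatic, HISAT2, GRCm38 (mm10), StringTie and edgeR, and they deposited raw counts per gene. Versions, annotation release and strand setting are not given in the sources used here. The study's methods name a QIAGEN kit and an Illumina HiSeq, whereas the labels name TRIzol and DNBSeq.

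These counts were tested with edgeR 4.0.16 under R 4.3.3 (filterByExpr with minimum count 10 and minimum total count 15, TMM, quasi-likelihood test, Benjamini-Hochberg adjustment over all tested genes, threshold 0.05). The fit was run on simulated counts in which few genes changed. That run checked the calculation and not the scaling between these libraries. SEs were taken from the test statistic. Gene positions, exons and lengths came from GENCODE M21, which lacked 260 of the 55487 identifiers, with 0.00694% of the counts. Promoter sequences came from RefSeq. The members and the lists of related genes, receptors, partners and markers were chosen with earlier results of these data known. Beside the 9 members, each list's 3 largest called rises and falls and its called changes of at least 2-fold were named, at a mean of at least 1 log2 CPM. Thbs3, Comp, Tnn, Tnxb, Gas6, Itgav, Itga9, Cd36, Cd44, Cd47, Plaur, Ggcx, Vkorc1 and Fam20c were named after their values were seen. Alternatives were other normalizations, no filter, DESeq2 1.42.0, the likelihood ratio test, a robust fit, halved counts, a fold minimum, the replicate block, another length and each sample left out. The qPCR, Western blot and animal work was not analysed here.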

Additional observations from a re-analysis of the deposited data

How the results depend on the processing

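The signs of the log2 fold changes were kept under all alternatives for 8 of the 9 genes, and Thbs2, near 0 throughout, fell below 0 with upper quartile scaling (-0.0060), library size alone and without normal-glucose replicate 1 (-0.053). Of 304 values recomputed under 18 settings, 280 stayed within the tolerance used, and 8 fold changes moved by more than the SD between replicates, 7 of them with library size alone: Postn 0.68, Tnc 0.38, Thbs1 -0.60, Thbs2 -0.078, Sparc 0.097, Spp1 -0.84 and Vtn 2.48. Upper quartile scaling gave -0.77 for Spp1. Library size alone shifted the median of all genes by -0.115 and gave 4881 lower and 1819 higher calls, 72.9% of them lower against 46.2% with TMM and 56.5% with upper quartile scaling. With a minimum of 1 on the log2 scale, 542 genes were lower and 395 higher, with 1 and 1 among the 9 genes, 1 and 9 among related genes, 1 and 1 among receptors and 3 and 1 among partners. Leaving out each sample in turn gave 2028 to 3056 lower and 1981 to 3138 higher calls over all genes, with the higher calls at 2004 without high-glucose replicate 1 and 1981 without high-glucose replicate 3. It gave 3 lower and 3 to 4 higher calls among the 9 genes, 3 to 6 and 19 to 20 among related genes (3 without high-glucose replicate 2), 8 to 10 and 4 to 7 among receptors, 6 and 10 to 12 among partners, and a difference of -0.236 to -0.0793 percentage points in the summed share. With the longest transcript as length, 4 of the 9 genes kept their place in the order in high glucose. Same-numbered samples did not deviate together (correlations -0.0248, 0.0038 and 0.0127), so the numbers were not taken as pairs. The replicate block gave 2418 lower and 2909 higher calls over all genes, 3 and 4 among the 9 genes, 5 and 20 among related genes, 8 and 6 among receptors and 6 and 11 among partners. The log2 fold changes with the block were 2.59 for Vtn and -2.82 for Mgp. With 3 samples against 3, an exact permutation test of a single gene cannot go below 0.1.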
